A study of Rattus norvegicus with 6 samples.

Results

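Levels of endothelial and barrier transport genes were examined in a single-cell RNA-seq matrix of rat hippocampus. The gene set comprised Kdr, Flt1, Egfl7, Cdh5, Pecam1 and Vwf, which serve the growth, contact and surface functions of vessel endothelium, and the transporter genes Abcb1b, Abcg2, Slco1a4 and Mfsd2a. Members were found by their symbol in the gene table of the matrix. Of the 10 symbols, 9 were matched and gave 10 of the 30452 gene rows, since Abcb1b stands on 2 rows (ENSRNOG00000008012 and ENSRNOG00000066042); Flt1 was not analysed here. The hippocampi came from male rats, 3 untreated controls and 3 that had received whole-brain irradiation with 20 Gy 2 months earlier. Strain and age were not given in the sources used here. Tissue was digested to single cells, red cells were lysed, dead cells were removed with magnetic beads, and no step selected vessel cells. Libraries came from a droplet method that tags the 3′ end of each captured transcript, so that a count is a number of distinct tagged molecules (UMIs).

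Brain endothelial cells line the vessels and form the blood-brain barrier. Tight and adherens junctions seal the spaces between neighbouring cells. Efflux pumps such as the one encoded by Abcg2 return drugs and other compounds to the blood, and uptake carriers bring nutrients and lipids into the brain. Vascular endothelial growth factor (VEGF) acts through the receptors encoded by Kdr and Flt1 and controls the growth and permeability of this cell layer.

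Barcodes carried 1 of 6 library numbers, and 0 of the 6 libraries could be tied to a labelled sample, so irradiated and control animals were not compared and no condition was assigned to a library. The matrix held 329205505 UMIs in 58078 barcodes, with 7479 to 11931 barcodes and 46853113 to 62094407 UMIs per library. After filtering, 44800 cells remained with a median of 4956 UMIs. Barcode sequences shared between libraries numbered 410, with 17 to 49 for each pair of libraries, and 3 of the endothelial-like cells carried such a sequence. Cell classes were named from fixed markers that excluded the members, and the members were also kept out of the genes used for clustering. A single vascular cluster of 197 cells was clustered again and gave 87 endothelial-like, 52 pericyte-like and 16 fibroblast-like cells. A further 42 cells, with markers of both endothelium and pericytes and a median of 9884 UMIs, were kept apart as mixed vascular cells.

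Endothelial-like cells were 0.194% of the kept cells (95% binomial interval 0.156 to 0.239%). Libraries 1 to 6 gave 1, 7, 20, 5, 44 and 10 of them, so libraries 3 and 5 held most. All 18 endothelial markers that had a row passed a log2 ratio of 2, which compares the level in endothelial-like cells with the median of the 11 other classes after adding 10 CPM to each (CPM is UMIs of a gene per 1000000 UMIs of the class). The same markers had named the class, so their passing largely follows from the naming. Cldn5, Ocln, Robo4 and Abcb1a, also on that marker list, were not analysed here. Genes from the marker lists of other cells were present as well. Of the 11 pericyte or smooth muscle markers tested, 4 passed the ratio (Rgs5, Abcc9, Vtn and Des), Myh11 had 0 UMIs, and the list summed to 728 CPM against 14282 CPM in pericyte-like cells. The microglia markers had 1 of 11 past the ratio, Sparc, and summed to 3834 CPM against 18512 CPM in microglia-like cells. Sparc alone was 3327 CPM of the first sum, with a UMI in 75 of the 87 cells, and 6049 CPM of the second. P2ry13 had 0 UMIs and P2ry12 was at 33.6 CPM. All 13 astrocyte markers were detected and summed to 2775 CPM against 29918 CPM in astrocyte-like cells. Of these, 1 passed the ratio, S1pr1 at 358 CPM in 49 of the 87 cells. Of the B cell markers, 2 of 7 passed, Ebf1 at 252 CPM in 41 cells, which was higher still in pericyte-like cells at 889 CPM, and Cd79a at 38.4 CPM in 1 cell. Both haemoglobin genes tested passed, from few cells. Hba-a2 stood at 956 CPM from 398 UMIs in 4 of the 87 cells, and Hbb-b1 at 713 CPM from 297 UMIs in 11. Whether these counts came from other cells or from the endothelial-like cells themselves was not tested. The part of other cells in the levels of the members was not tested either.

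Sequence before the start of transcription is shown for 4 members that stood high in endothelial-like cells and have an entry in the RefSeq promoter table for the rat build GRCr8. In all, 5 of the 9 members have one. The other is Abcb1b, not shown. Which of the 2 Abcb1b rows, if either, this promoter belongs to was not settled. The Abcb1b window before the annotated gene has 123 bases and holds no ETS or SOX core as defined next. The full Abcb1b window of 250 bases holds 3 ETS cores, all past that point. Capitals mark matches, on either strand, to a core of ETS factor sites (GGAAG or CTTCC) or of SOX factor sites (ACAAT or ATTGT). ETS and SOX factors direct many endothelial genes. The windows end at the start given in the table, or at the first base of the annotated gene where that lies earlier.
Kdr (chr14:32571813-32572030, plus strand): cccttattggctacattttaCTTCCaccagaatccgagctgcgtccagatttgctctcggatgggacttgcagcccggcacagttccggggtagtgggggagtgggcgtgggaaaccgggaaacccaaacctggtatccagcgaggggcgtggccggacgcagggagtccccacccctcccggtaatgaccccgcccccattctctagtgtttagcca
Egfl7, the first of its 2 starts (chr3:29805381-29805630, plus strand): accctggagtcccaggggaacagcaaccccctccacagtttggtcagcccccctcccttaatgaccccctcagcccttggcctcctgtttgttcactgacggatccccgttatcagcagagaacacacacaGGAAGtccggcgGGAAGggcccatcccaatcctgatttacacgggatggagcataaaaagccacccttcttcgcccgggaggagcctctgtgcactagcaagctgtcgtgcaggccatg
Abcg2 (chr4:89075224-89075473, plus strand): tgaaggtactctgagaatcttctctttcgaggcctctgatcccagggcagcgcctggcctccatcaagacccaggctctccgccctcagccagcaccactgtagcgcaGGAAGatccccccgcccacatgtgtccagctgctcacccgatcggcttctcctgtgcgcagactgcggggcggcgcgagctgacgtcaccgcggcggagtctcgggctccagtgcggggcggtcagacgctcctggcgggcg
Slco1a4 (chr4:176495847-176496096, minus strand): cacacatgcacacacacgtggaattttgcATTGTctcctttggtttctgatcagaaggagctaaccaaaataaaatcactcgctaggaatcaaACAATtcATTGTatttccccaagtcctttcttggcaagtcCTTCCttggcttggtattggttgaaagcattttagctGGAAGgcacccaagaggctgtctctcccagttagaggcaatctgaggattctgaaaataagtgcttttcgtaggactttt
The ETS core was found once in the Kdr and Abcg2 windows and 2 times each in those of Egfl7 and Slco1a4. Such a core occurs in 63.3% of 33469 promoter windows of 250 bases, so its presence does not set these genes apart. The SOX core was found 3 times in the Slco1a4 window and was not among the letters of the other windows shown; 30.0% of all windows hold it. The second Egfl7 start had 1 SOX core. A TCF/LEF core (CTTTGA or TCAAAG), the site type of Wnt signalling, was not among the letters of the member windows and is held by 13.9% of all windows.

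Of the 10 member rows, 9 reached a log2 ratio of 2 in endothelial-like cells. Among the 15644 genes tested, those with at least 50 UMIs in kept cells, 3.71% did. The same 9 rows had their highest CPM in endothelial-like cells, against 7.82% of all genes tested. The median log2 ratio was 4.91 over the members and 0 over all genes tested. The row that stood apart was Abcb1b ENSRNOG00000066042. The genes were listed as vessel genes, so these counts describe the list. The same 9 rows passed whichever of the 6 libraries was left out. Levels in CPM are compared here between classes for the same gene, not between genes, since capture at the 3′ end differs from gene to gene. Intervals are exact Poisson or binomial intervals and cover counting error only.

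**Figure D1:**
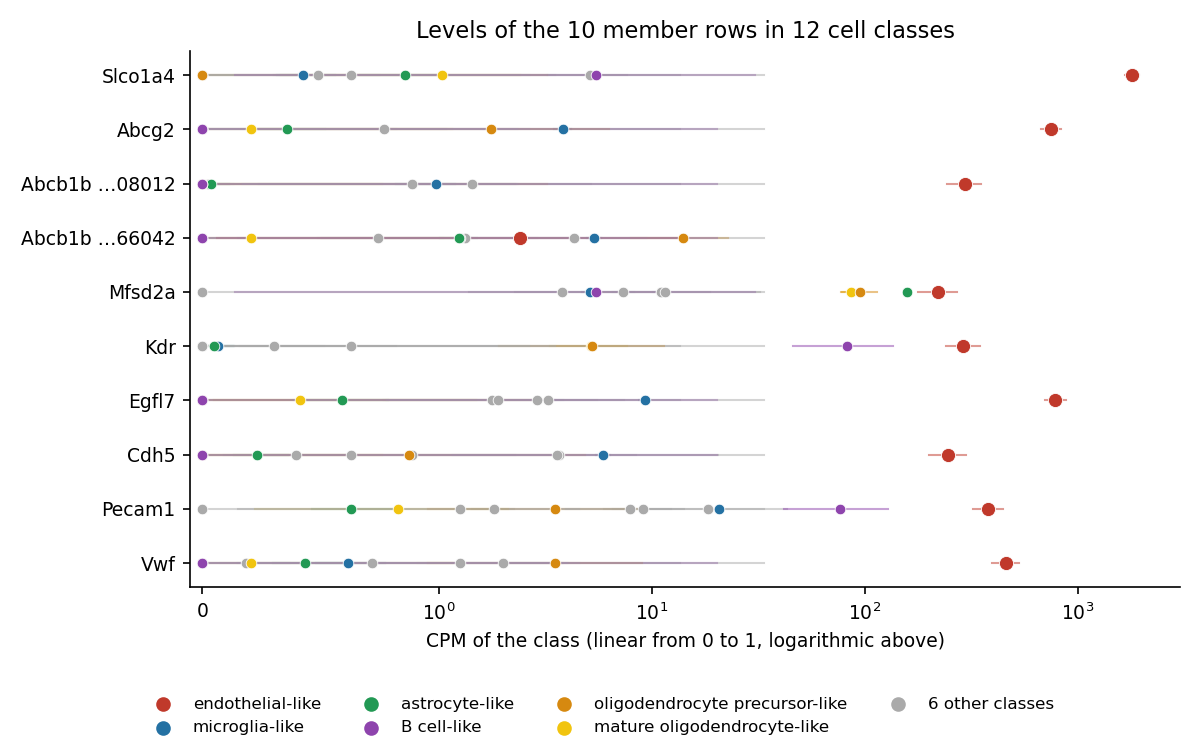
Level of each member row (CPM, linear from 0 to 1 and logarithmic above) in 12 cell classes. Each point is the summed count of 1 class and each line its 95% Poisson interval; 9 of the 10 red endothelial-like points lie farthest right, while Mfsd2a has astrocyte-like and oligodendrocyte points close behind.

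Slco1a4 encodes an organic anion transporting polypeptide that carries bile acids, hormones and drugs across the barrier. In endothelial-like cells it stood at 1790 CPM (1664 to 1923), from 745 UMIs in 76 of 87 cells. Among the single cells its level ran from 0 to 88.9 UMIs per 10000, with a median of 18.3. In library 3 the level was 2088 CPM (1780 to 2433, 20 cells) and in library 5 it was 1586 CPM (1415 to 1771, 44 cells), intervals that do not overlap. The other 4 libraries held fewer than 20 endothelial-like cells and are not given singly. Over all kept cells Slco1a4 stood at 0.525, 3.63, 9.67, 4.64, 11.9 and 3.62 CPM in libraries 1 to 6. It was highest in libraries 5 and 3, which held the most endothelial-like cells, and lowest in library 1, which held 1. In such sums, fewer cells of a type and less RNA per cell cannot be told apart. Outside the vessels Slco1a4 was close to absent, at 0.427 CPM in microglia-like and 0.858 CPM in astrocyte-like cells. T or NK cell-like cells were somewhat higher, at 5.11 CPM (3.24 to 7.66) from 23 UMIs in 23 of 911 cells. Endothelial-like cells held 49.3% of its UMIs and mixed vascular cells 38.6%.

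Abcg2 encodes the breast cancer resistance protein, an efflux pump of the luminal membrane. It stood at 747 CPM (666 to 835) in endothelial-like cells, with a UMI in 63 of 87. The levels were 1184 CPM (955 to 1450) in library 3 and 631 CPM (525 to 752) in library 5, so the 2 libraries differed beyond counting error. Microglia-like cells had 3.80 CPM (3.46 to 4.17). Those cells, the most numerous class, held 41.0% of all Abcg2 UMIs, beside 28.6% in endothelial-like and 23.6% in mixed vascular cells; the whole vascular cluster held 52.2%. In microglia-like cells the levels were 3.23, 5.88, 2.93, 2.79, 2.93 and 2.38 CPM in libraries 1 to 6. Library 2 was highest, and the other 5 lay close together.

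The 2 rows of Abcb1b, which encodes a P-glycoprotein efflux pump, behaved differently. Row ENSRNOG00000008012 stood at 293 CPM (243 to 350) in endothelial-like cells, with 122 UMIs in 48 of 87 cells. Its level was 191 CPM (107 to 315) in library 3 and 389 CPM (307 to 486) in library 5, which overlap. In microglia-like cells it was at 0.990 CPM, from 116 UMIs in 115 of 21564 cells. Row ENSRNOG00000066042 had 1 UMI in the 87 endothelial-like cells, a level of 2.40 CPM (0.0608 to 13.4). Its highest class was oligodendrocyte precursor-like cells, at 13.99 CPM (7.996 to 22.7) from 16 UMIs, and microglia-like cells, at 5.36 CPM (4.95 to 5.79), held 78.8% of its UMIs. Levels of this row in microglia-like cells were 3.03, 5.88, 4.14, 8.54, 10.6 and 9.06 CPM from library 1 to 6. Libraries 4, 5 and 6 were the highest. Neither identifier could be matched to an entry of the gene table used for names, so which row corresponds to which annotated gene was not settled. In the GRCr8 gene order Abcb1b lies next to Abcb1a, a closely related pump gene not analysed here, and reads of such copies may be split by counting in ways that the sources used here do not give.

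Mfsd2a encodes the carrier of lysophosphatidylcholine that brings omega-3 fatty acids into the brain and restrains vesicle traffic across the endothelium. Of the 9 rows highest in endothelial-like cells it had the smallest share of its UMIs there. Endothelial-like cells stood at 221 CPM (178 to 271), with a UMI in 44 of 87 cells, and astrocyte-like cells at 158 CPM (155 to 161), with a UMI in 6121 of 11910. In library 5 they stood at 162 CPM (111 to 228) and 161 CPM. In library 3 endothelial-like cells were higher, at 331 CPM (216 to 485) beside 155 CPM. Without library 3 the endothelial-like level was 195 CPM and still the highest of the classes. The order depended on how cells were named: the whole vascular cluster stood at 141 CPM, and cells named singly by their highest marker score at 51.9 CPM, both below astrocyte-like cells.

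Astrocyte-like cells held 86.7% of all Mfsd2a UMIs and endothelial-like cells 0.646%. Levels in astrocyte-like cells were 117, 116, 155, 177, 161 and 166 CPM in libraries 1 to 6. Libraries 1 and 2 were lowest and library 4 was highest. The astrocyte clusters ranged from 82.9 CPM in cluster 7, whose cells had a median of 1272 UMIs, to 191 CPM in cluster 8, with 162, 158 and 129 CPM in clusters 1, 10 and 11. Cluster 10 came almost wholly from library 3 (1176 of 1190 cells) and cluster 11 from library 4 (1022 of 1061 cells). Cells of the oligodendrocyte line carried Mfsd2a as well, precursor-like cells at 94.4 CPM (77.5 to 114) and mature oligodendrocyte-like cells at 86.3 CPM (78.2 to 95.0), which overlap. Microglia-like cells, at 5.11 CPM (4.71 to 5.54), and unnamed myeloid cells, at 11.1 CPM (10.1 to 12.1), were far lower. In all kept cells Mfsd2a stood at 15.9, 33.6, 30.2, 102, 75.9 and 66.0 CPM in libraries 1 to 6. Library 4 was highest and also had the largest share of astrocyte-like cells (50.3%), and library 1 was lowest in both (9.95%). As a measure of background, 0 of 52 pericyte-like cells (median 2004 UMIs) and 2 of 200 neutrophil-like cells (median 1198 UMIs) had an Mfsd2a UMI. Shares thinned to 1000 UMIs, here and below, use only cells with at least 1000 UMIs. This left out 21 of 87 endothelial-like, 1067 of 11910 astrocyte-like and 310 of 21564 microglia-like cells. The thinned share with an Mfsd2a UMI was 14.02% in astrocyte-like, 23.6% in endothelial-like and 0.550% in microglia-like cells.

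Kdr encodes VEGF receptor 2, the main signalling receptor for VEGF on endothelium. It stood at 288 CPM (239 to 345) in endothelial-like cells, from 120 UMIs in 47 of 87 cells, with 293 CPM in library 3 and 268 CPM in library 5. Microglia-like cells had 8 UMIs in 21564 cells and astrocyte-like cells 4 in 11910. B cell-like cells ranked second at 81.9 CPM (45.8 to 135), but the 15 UMIs came from 3 of 57 cells. Cells of the oligodendrocyte line showed a low level spread over more cells. Mature oligodendrocyte-like cells had 5.16 CPM (3.34 to 7.62), from 25 UMIs in 22 of 851 cells, and precursor-like cells 5.25 CPM (1.93 to 11.4).

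Vwf encodes von Willebrand factor, which endothelium stores and releases to bind platelets. Endothelial-like cells stood at 459 CPM (396 to 529), with 191 UMIs in 50 of 87 cells. Libraries 3 and 5, at 573 and 515 CPM, had overlapping intervals. Oligodendrocyte precursor-like cells followed with 3.50 CPM (0.953 to 8.95) from 4 UMIs. Endothelial-like and mixed vascular cells held 36.5% and 38.2% of its UMIs.

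Egfl7 encodes a protein that endothelial cells secrete into the matrix around growing vessels. Cdh5 encodes VE-cadherin, the adhesion molecule of endothelial adherens junctions, and Pecam1 encodes CD31, an adhesion molecule of endothelial contacts that leukocytes and platelets also carry. In endothelial-like cells Egfl7 stood at 783 CPM (700 to 873), with 1056 CPM (841 to 1310) in library 3 and 712 CPM (599 to 840) in library 5. Cdh5 stood at 245 CPM (200 to 297), with 140 CPM (69.9 to 251) in library 3 and 268 CPM (200 to 350) in library 5. Pecam1 stood at 380 CPM (323 to 444), with 356 and 389 CPM. Of these 3 genes only Egfl7 had intervals that did not overlap between the 2 libraries.

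All 3 genes also had low counts in microglia-like cells. Pecam1 was at 20.6 CPM there (19.8 to 21.4), from 2411 UMIs in 2028 of 21564 cells, and these were 81.1% of its UMIs. Cdh5 was at 5.89 CPM (5.45 to 6.34), which made up 73.1% of its UMIs. Egfl7 was at 9.25 CPM (8.71 to 9.82), or 56.1% of its UMIs. Astrocyte-like cells, although deeper, with a median of 5984 UMIs against 4876, stood at 0.627 CPM for Pecam1, 0.231 CPM for Cdh5 and 0.589 CPM for Egfl7. A Pecam1 UMI was found in 9.40% of microglia-like and 0.411% of astrocyte-like cells, and after thinning to 1000 UMIs in 1.98% and 0.0759%. The 7613 cells of the unnamed myeloid clusters, led by Clec7a and Lyz2 in cluster 5, had 1.81 CPM of Pecam1, 0.395 CPM of Cdh5 and 3.25 CPM of Egfl7.

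The mix of members in microglia-like cells was unlike that of endothelial-like cells. Slco1a4 had 745 UMIs beside 158 of Pecam1 in endothelial-like cells, and 50 beside 2411 in microglia-like cells. Of the 2028 microglia-like cells with a Pecam1 UMI, 17 also had one of Kdr, Vwf or Slco1a4. Of the 53 endothelial-like cells with Pecam1, 51 did. Over all 21564 microglia-like cells, Kdr was found in 7, Vwf in 72 and Slco1a4 in 46, while Slco1a4 alone was in 76 of 87 endothelial-like cells. The contrast between 17 and 51 cells mainly restates these class rates. The 18 endothelial markers other than the members summed to 14926 CPM in endothelial-like, 1350 CPM in microglia-like and 865 CPM in astrocyte-like cells. A single gene, Pltp, made up 1134 CPM of the microglia-like sum, Eng was at 101 CPM, Tie1 at 27.1 CPM and Tek at 20.2 CPM, while Ptprb was at 0.188 CPM and Emcn at 0.119 CPM. The part of RNA from vessel cells in the microglia-like values was not tested. B cell-like cells also had Pecam1, at 76.5 CPM (41.8 to 128), from 14 UMIs in 13 of 57 cells.

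In microglia-like cells the libraries differed. Pecam1 stood at 31.8, 17.1, 13.3, 23.6, 20.4 and 15.02 CPM in libraries 1 to 6, highest in library 1. Cdh5 stood at 7.57, 7.85, 3.82, 3.25, 4.71 and 2.86 CPM, with libraries 1 and 2 above the rest. Egfl7 stood at 9.87, 10.0, 10.6, 4.27, 7.25 and 4.77 CPM, with libraries 1, 2 and 3 above the others. The 3 genes thus did not share an order of libraries. The number of microglia-like cells behind these values ran from 489 in library 6 to 7024 in library 3. The libraries also differed in which microglia-like clusters they filled. Cluster 2, led by Cxcl2 and Ccl2, had 5494 of its 5611 cells from library 3, clusters 0 and 4, led by Tmem119 and P2ry12 among others, came mostly from libraries 1 and 2, and cluster 6, led by C1qb and Mmp2, had 1347 of 2436 cells from library 4. Pecam1 stood at 23.0 CPM in cluster 0, 26.3 in cluster 4, 24.7 in cluster 6 and 12.9 in cluster 2. Egfl7 had another order, with 9.98 and 10.2 CPM in clusters 0 and 4, 10.9 in cluster 2 and 4.53 in cluster 6. Cdh5 was higher in clusters 0 and 4, at 7.50 and 7.99 CPM, than in clusters 2 and 6, at 3.88 and 4.12 CPM. The part of these clusters in the differences between libraries was not tested.

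**Figure D2:**
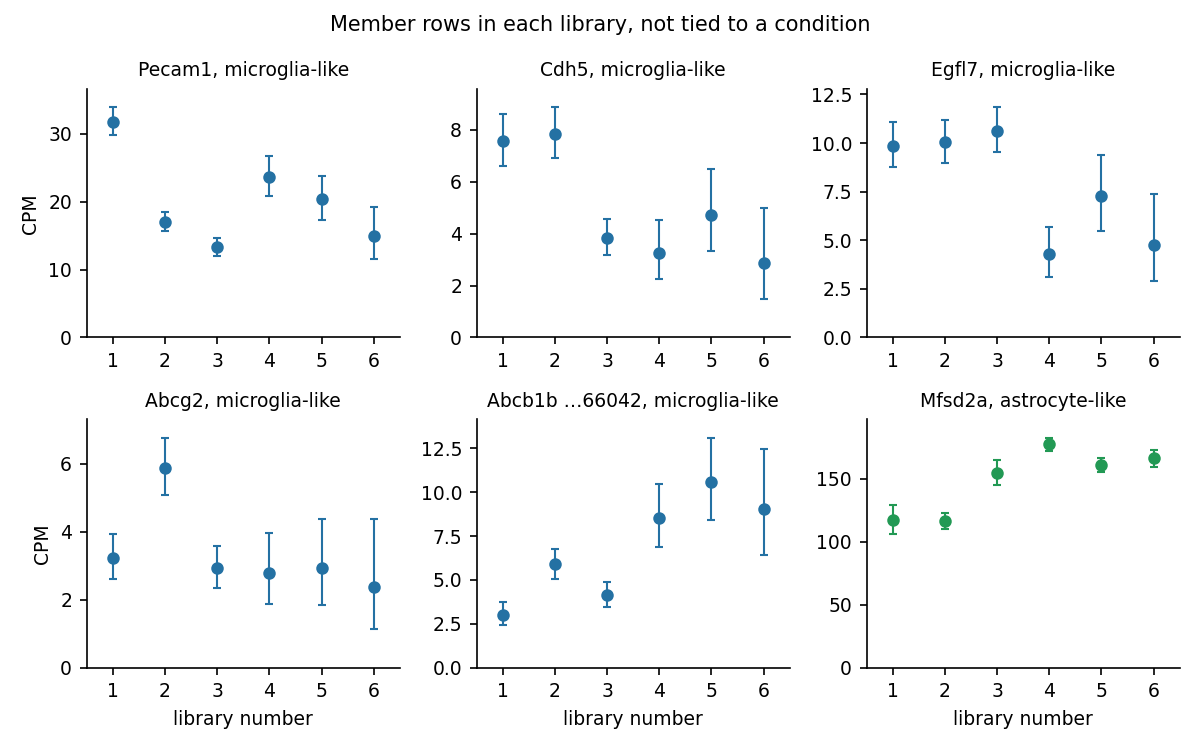
CPM of 6 member and class pairs in libraries 1 to 6, with 95% Poisson intervals as bars; 5 panels are microglia-like cells (blue) and 1 is astrocyte-like cells (green). Pecam1 was highest in library 1, Abcg2 in library 2 and Mfsd2a in library 4, and no library is tied to a condition.

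**Figure D3:**
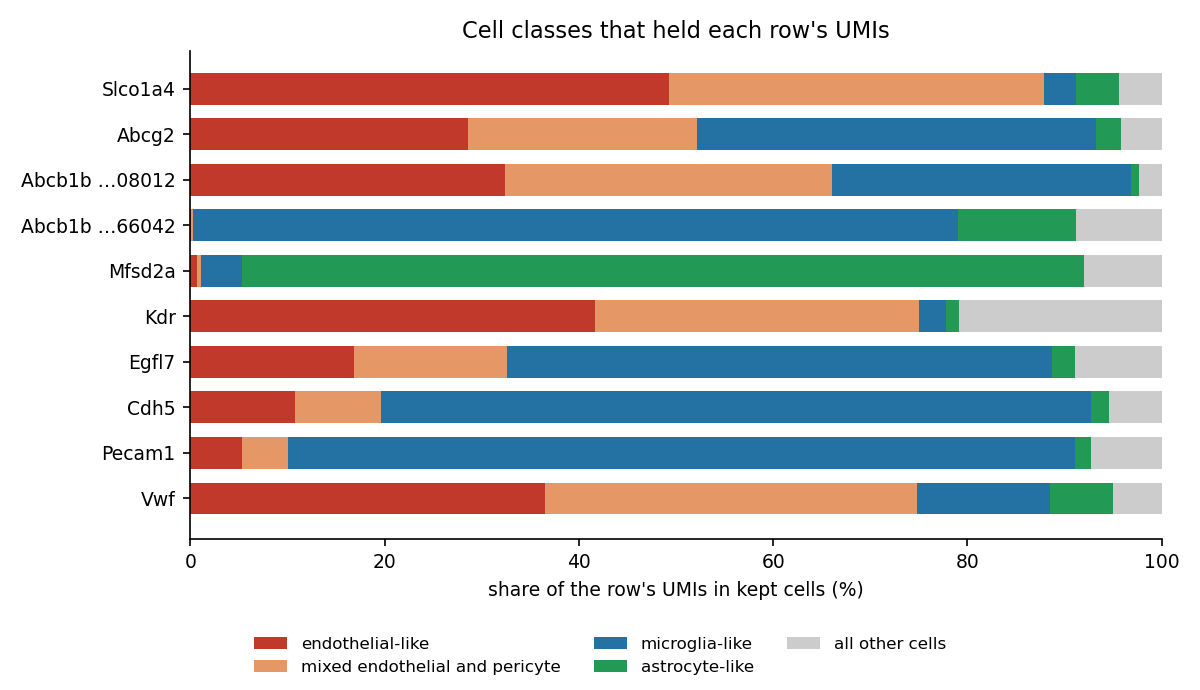
Share of each member row's UMIs in kept cells (%), divided by the class that held them. Endothelial-like and mixed vascular cells held most UMIs of Slco1a4, Kdr and Vwf, microglia-like cells most of Pecam1, Cdh5 and Egfl7, and astrocyte-like cells most of Mfsd2a.

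The 42 mixed vascular cells carried the same 9 rows. Slco1a4 stood at 1231 CPM in them, Egfl7 at 642 CPM, Abcg2 at 543 CPM and Vwf at 422 CPM. Pecam1 was at 296 CPM, Abcb1b ENSRNOG00000008012 at 268 CPM, Kdr at 203 CPM, Cdh5 at 175 CPM and Mfsd2a at 131 CPM. Each of these was below the level in endothelial-like cells. The intervals of the 2 groups did not overlap for Slco1a4, Abcg2 and Mfsd2a. They overlapped for the other 6 rows.

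Pericyte-like cells, which wrap capillaries beside the endothelium, had 0 UMIs of all 10 rows in 52 cells. For each row a count of 0 in 110276 UMIs allows up to 27.2 CPM, so levels like those of endothelial-like cells would have been seen for 9 of the rows, and a level like that of Abcb1b ENSRNOG00000066042 would not. Fibroblast-like cells, with 16 cells fewer than the 20 set for a class, are given because of 2 values chosen after they were seen. Cdh5 had 15 UMIs in 8 of the 16 cells (152 CPM, 85.0 to 251), and Slco1a4 had 10 UMIs in 4 (101 CPM, 48.6 to 186), while Kdr, Vwf, Egfl7 and Abcg2 had 0.

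Single cells carried the members together. The 8 rows other than Mfsd2a and Abcb1b ENSRNOG00000066042 were considered, a choice made after the levels were seen. In endothelial-like cells the median was 6 of the 8 rows with at least 1 UMI, 59 of 87 cells had 4 or more, 18 had all 8 and 2 had 0. Mixed vascular cells had a median of 7, with 4 or more in 41 of 42. In microglia-like cells 3644 of 21564 had 1 row and 2 had 4 or more, and in astrocyte-like cells 0 of 11910 had 4 or more. Over all 58078 barcodes 114 had 4 or more rows, of which 6 had failed the filters and 5 had been removed as doublets. For these rows the share of endothelial-like cells with a UMI ran from 40.2% for Cdh5 to 87.4% for Slco1a4. Thinned to 1000 UMIs, among the 66 cells of at least that depth, it ran from 19.7% to 83.3%. In pericyte-like cells it was 0% for each row, with median depths of 2606 UMIs in endothelial-like and 2004 in pericyte-like cells. Single cells spread widely. Per 10000 UMIs of a cell the highest Cdh5 value was 15.9, with a median of 0, and the highest Abcg2 value 58.1, with a median of 7.04. Depth moved with detection inside the endothelial-like class: cells with a Kdr UMI had a median of 4885 UMIs and cells without one 1137.

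**Figure D4:**
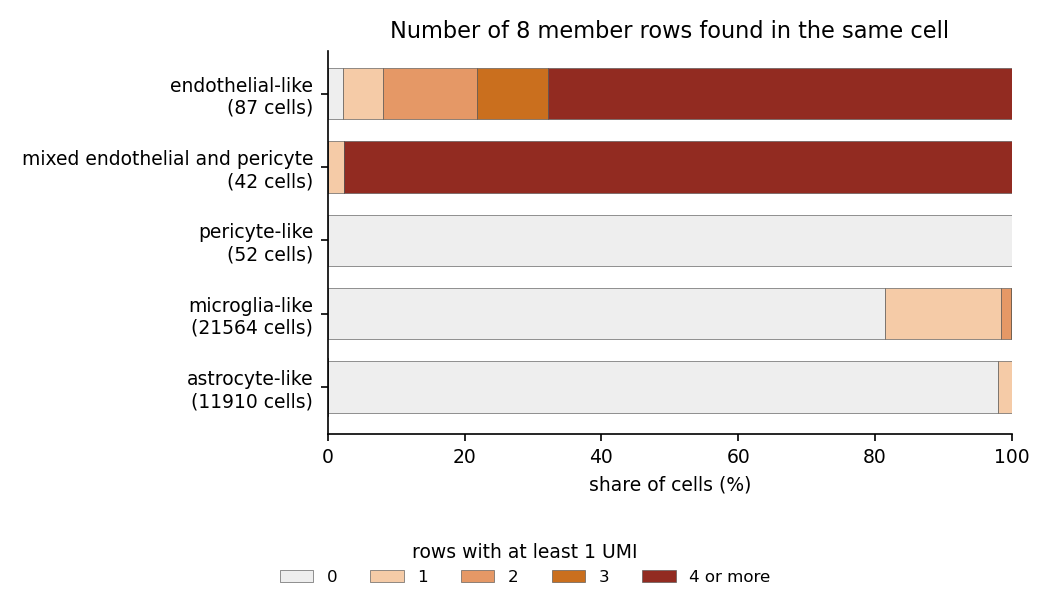
Share of cells (%) in 5 classes with 0, 1, 2, 3 or 4 and more of 8 member rows. Endothelial-like cells had 4 or more in 59 of 87 and mixed vascular cells in 41 of 42, pericyte-like cells had 0 rows in all 52, and microglia-like cells mostly had 0 or 1.

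The endothelial-like cells formed 2 clusters that differed in some members. Cluster 19 had 57 cells, 36 of them from library 5 and 0 from library 3. Cluster 29 had 30 cells, 20 of them from library 3 and 8 from library 5. All 20 endothelial-like cells of library 3 thus lay in cluster 29. The contrast of the 2 clusters therefore largely overlaps that of libraries 5 and 3 given above, and is not a separate result. The part of the library in these differences was not tested. Abcg2 stood at 637 CPM (554 to 729) in cluster 19 and 1166 CPM (950 to 1417) in cluster 29. Egfl7 stood at 716 CPM (628 to 813) and 1039 CPM (835 to 1277). Cdh5 was lower in cluster 29, at 127 CPM (63.4 to 227) against 276 CPM (222 to 339), with intervals that just overlap. Abcb1b ENSRNOG00000008012 was at 322 CPM (263 to 389) and 185 CPM (106 to 300), which overlap too. Slco1a4, Kdr, Pecam1, Vwf and Mfsd2a also had overlapping intervals.

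Genes with the profile most like each member over the 12 classes were found by Pearson's r of log2(CPM + 10), among 1471 genes with at least 50 UMIs in endothelial-like cells. The classes share libraries and differ in depth, so r is a description. Egfl7 and Cdh5 were most like other members: Egfl7 like Abcg2 (0.994), Abcb1b ENSRNOG00000008012 (0.992) and Cdh5 (0.992), and Cdh5 like Egfl7, Abcg2 (0.990) and Abcb1b ENSRNOG00000008012 (0.990). Slco1a4 was most like Adgrl4 (0.995), an adhesion receptor gene of endothelium, Cyyr1 (0.995) and Sox17 (0.995). Abcb1b ENSRNOG00000008012 was most like Cyyr1, Adgrl4 and Foxf1 (0.999 each), and Abcg2 like Foxf1, Ptprb and AC120594.1 (0.997 each). Vwf was most like Ddc, Ptprb and AABR07044570.2 (0.998 each). Egfl7, Cdh5, Slco1a4, Abcb1b ENSRNOG00000008012, Abcg2 and Vwf were below 10 CPM in each of the 12 classes except endothelial-like cells. With 10 CPM added, their profiles were largely a peak in that class. A high r with any other gene of that shape largely follows, so these matches cannot show a closer likeness. Adgrl4, Sox17 and Ptprb were also markers that named the class. Kdr was most like Cmtm8 (0.943), Pecam1 (0.910) and ENSRNOG00000070478 (0.903). Pecam1 was most like Kdr, Rnf144b (0.887) and ENSRNOG00000070478 (0.882). Both Kdr and Pecam1 had their next highest level after endothelial-like cells in B cell-like cells, from only 15 and 14 UMIs. The part of these few counts in their likeness was not tested. Mfsd2a had weaker matches, ENSRNOG00000003984 (0.849), the glutamine carrier gene Slc38a3 (0.837) and the lactate carrier gene Slc16a1 (0.830). Abcb1b ENSRNOG00000066042 was most like Pdia3 (0.750) and Calr (0.736), which encode helpers of protein folding in the endoplasmic reticulum, and Slc1a1 (0.730). The highest class level of this row was 13.99 CPM, from 16 UMIs, and it had 1 UMI in endothelial-like cells. With 10 CPM added its profile was nearly flat, so these matches are weak and carry no theme.

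Genes on 10 lists around the members were counted in the same way, by the number past a log2 ratio of 2 among those tested, beside 3.71% of all genes tested. Some listed genes were also markers that named the endothelial-like class, among them Slc2a1, Esam, Tek, Tie1, Sox17, Erg and Icam2. Their passing was largely set by the naming, so the counts of their lists are not independent of it. Other barrier transporters had 17 of 30 genes past this ratio, with a median log2 ratio of 2.40. The highest levels were those of Slc2a1 (1501 CPM), the glucose transporter gene, Slc3a2 (1127 CPM), a partner of amino acid carriers, and Slc7a1 (918 CPM), a carrier of cationic amino acids. Slco2a1, Slc29a4 and Abca1 had 0 UMIs, which allows up to 7.21 CPM. Slco2a1 reached at most 0.00853 CPM in any class, while Abca1 stood at 62.6 CPM in astrocyte-like cells. A 0 in a gene near absent from all classes, here and in the lists below, does not set endothelial-like cells apart.

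Tight and adherens junction genes had 8 of 14 past the ratio, with a median of 2.73. Esam (742 CPM), Tjp1 (512 CPM), which encodes the scaffold protein ZO-1, and Jam2 (404 CPM) led. The VEGF and Tie pathway had 11 of 20, with a median of 2.28, led by Epas1 (519 CPM), a hypoxia-inducible factor, and by the angiopoietin receptor genes Tek and Tie1 (271 CPM each). Flt4, the receptor gene of lymphatic vessels, had 0 UMIs here and in the 11 other classes. Wnt signalling, which induces barrier genes in brain endothelium, had 8 of 24, with a median of 1.18. Its highest genes were the effector Lef1 (1177 CPM), Sox17 (353 CPM) and the beta-catenin gene Ctnnb1 (245 CPM), the last at a log2 ratio of 1.16, and the ligand gene Ndp had 0 UMIs.

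Endothelial transcription factors had 11 of 19 genes past the ratio, with a median of 2.38. Klf2 (1456 CPM) was highest of these but had a log2 ratio of 1.48, and neutrophil-like cells had more of it. Klf4 (644 CPM) and the ETS factor gene Erg (456 CPM) followed, and Foxq1 and Foxl2 had 0 UMIs. Genes of leakage and leukocyte adhesion had 4 of 9, with a median of 1.47, led by Cavin2 (634 CPM), Icam2 (502 CPM) and the caveolin gene Cav1 (442 CPM). Plvap, which marks fenestrated or leaky endothelium, and the adhesion genes Sele, Selp, Ackr1 and Madcam1 had 0 UMIs.

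Of the lists for vessel segments, the capillary list stood highest. It had 7 of 8 genes past the ratio and a median of 4.24, led by Cxcl12 (4346 CPM), Spock2 (2450 CPM) and Rgcc (615 CPM). The arterial list had 4 of 9, with a median of 1.63, led by Hey1 (103 CPM), Alpl (79.3 CPM) and Mgp (55.3 CPM), the last at 3201 CPM in pericyte-like cells. The arterial list summed to 344 CPM in endothelial-like and 3927 CPM in pericyte-like cells. Bmx, Gkn3, Gja5, Cytl1 and Stmn2 had 0 UMIs. Gja5, Cytl1 and Gkn3 reached at most 0.00853, 0.629 and 0.718 CPM in any class. The venous list had 2 of 11, with a median of 0.11. Among its highest genes were Tmsb10 (2306 CPM, log2 ratio -0.41) and Slc38a5 (45.6 CPM), and Ackr1 and Selp had 0 UMIs. Coagulation genes had 6 of 13, with a median of 1.58, led by Plat (1019 CPM), the tissue plasminogen activator gene, Tfpi (312 CPM) and Anxa2 (264 CPM). Mmrn1 and Selp had 0 UMIs, and Mmrn1 reached at most 0.222 CPM in any class.

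**Figure D5:**
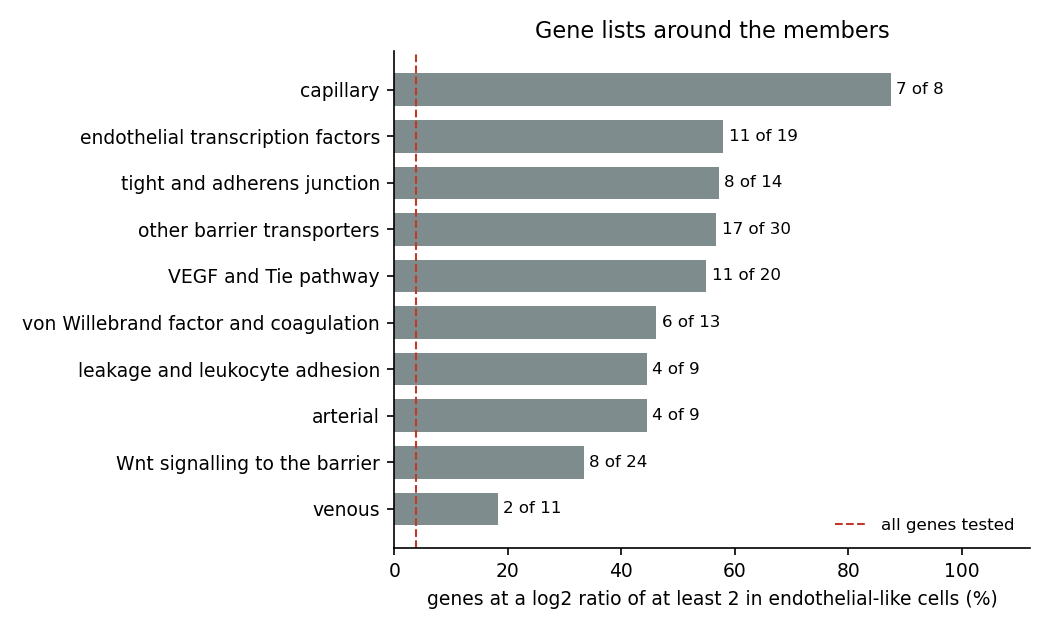
Share of the tested genes of 10 lists (%) past a log2 ratio of 2 in endothelial-like cells, with counts beside the bars; the dashed line marks 3.71% of all genes tested. The capillary list was highest with 7 of 8 genes and the venous list lowest with 2 of 11. Some genes of other lists were also markers that named the class.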

How the data were processed

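The deposited file was 1 matrix of UMI counts for 30452 genes and 58078 barcodes, made by the authors with Cell Ranger 7.0.0 per the file headers. The submitters' processing notes name the build mm10, while the gene identifiers are those of rat Ensembl. Read alignment settings were not given in the sources used here. How reads of near-identical genes were split was not given either, which bears on the 2 rows of Abcb1b. Here, barcodes with at least 500 UMIs, 200 genes and at most 20% mitochondrial UMIs were kept (48704), and 3904 likely doublets were removed, as the cells most like simulated sums within their library, at 0.8% per 1000 barcodes. Cells were clustered (2000 variable genes, 30 principal components, 15 neighbours, Leiden resolution 1.0, leidenalg 0.10.2) and clusters were named from marker lists. UMIs were summed per class, with exact 95% intervals (SciPy 1.17.1) and, for a count of 0, the level that 3 counts give. With 0 libraries tied to a sample, the planned comparison of irradiated with control was not made and no p-value is given. Neither libraries nor the cells of a class count as replicates of a condition. The calculation was checked on simulated data. Members and lists were chosen with earlier results of these data known; naming details, the second clustering of the vascular cells and the 8 rows counted per cell were settled after the data were seen. Named genes are all members, the 3 of highest CPM and those with 0 UMIs of each list, and the 3 most like each member; 1 gene of the venous list is not reported here. Other filters, resolutions and namings were tried, and each library was left out in turn.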

Additional observations from a re-analysis of the deposited data

Results flagged for a closer look

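In 21 sets of 6 libraries with enough UMIs, the gap between the most extreme library and its neighbour was compared with Dixon's critical ratio for 6 values, and 2 sets exceeded it; chance alone does so in about 1 in 20 sets, and the 6 libraries are not a labelled group. Both concerned library 2 in microglia-like cells. Abcg2 stood at 5.88 CPM there from 194 UMIs, with the nearest library at 3.23 and the lowest at 2.38 CPM (ratio 0.757). Abcb1b ENSRNOG00000008012 stood at 1.46 CPM from 48 UMIs, with the nearest at 0.928 and the lowest at 0.636 CPM (ratio 0.643). Both genes encode efflux pumps, and the cause was not tested.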

How the results depend on the processing

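The 9 rows past the ratio and the 9 rows highest in endothelial-like cells were the same with a mitochondrial limit of 10%, with no such limit, with doublets kept, at Leiden resolutions 0.5 and 2.0, with the members allowed in the clustering and without each library. The 87 cells held 8.78% of all member UMIs, a share that became 11.5% at the 10% limit, 7.30% with no limit and 7.31% with doublets kept, where the median share per row went from 22.7% to 20.0%. When each cell was named by its own highest marker score, 616 cells were endothelial-like, the share became 14.6%, the median share per row 37.5% and the median CPM 84.4 instead of 336; 8 rows passed the ratio and 8 were highest, Mfsd2a being lost. With the vascular cluster taken whole, an alternative chosen after seeing the data, the values were 197 cells, 16.4%, 42.4% and 249 CPM, and 8 rows were highest. With the mixed cells added, also chosen later, the shares were 16.3% and 42.4%. Leaving out 1 library gave 43 to 86 cells, a share of 6.32% to 10.2%, a median share of 14.8% to 26.9% and a median of 334 to 351 CPM. Leaving out library 5 gave the lowest number of cells, 43, and both lowest shares. No paired analysis was possible because no library could be tied to a labelled sample; the comparison of irradiated with control and its alternatives were not run. The causes were not tested. Depth limits low levels: 3 counts equal 7.21 CPM in endothelial-like and 27.2 CPM in pericyte-like cells.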

Other observations

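The gene with the highest log2 ratio in endothelial-like cells was Cdc45, a replication gene, at 5621 CPM and a ratio of 8.97, followed by Cxcl12 at 8.57; among the members Slco1a4 ranked 5 at 7.42. Cycling markers did not move with Cdc45: 0 of 14 passed the ratio in these cells, Mki67 had 2 UMIs, Cdk1 1 and Top2a 0. In the GRCr8 gene table Cdc45 lies beside Cldn5, the main claudin gene of brain endothelium, which was not analysed here. What Cdc45 counts stand for was not tested.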
